A study of Citrus sinensis with 2 samples.

Results

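The miR171 family is a group of plant miRNAs that guide the cleavage of mRNAs of GRAS transcription factors. Its members were taken as the names miR170 and miR171 in a count table of known plant miRNAs, and both names were present. They are 2 of the 1215 names in that table, and only miR171 was abundant.

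Small RNA was sequenced from fully expanded leaves of seedlings of Citrus sinensis, the sweet orange, cultivar Xuegan. Seedlings 5 weeks old were moved to pots of sand and, after a further 10 weeks, were watered for 16 weeks with nutrient solution that held 0 mM MgSO4 (Mg-deficient) or 1 mM MgSO4 (Mg-sufficient, the control). In the Mg-deficient solution Na2SO4 stood in for MgSO4, so that sulfate was supplied in both groups while the sodium supply also differed. Each treatment is 1 library from 1 mixed sample of leaves of 5 plants, so no difference below could be set against a spread between replicates and no p-value is given. Markers of leaf cells are mRNAs, which a table of miRNA counts does not hold, so the labelled tissue could not be checked. In a mixed leaf sample, fewer cells that make a miRNA and less of it per cell cannot be told apart.

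In Arabidopsis, miR170 and miR171 have nearly identical mature sequences and share their targets, the HAIRY MERISTEM genes of the GRAS family, which belong to the SCARECROW-LIKE (SCL) genes. These proteins keep shoot meristems active, and in Arabidopsis leaves they restrain chlorophyll synthesis by holding down the gene of protochlorophyllide oxidoreductase, an enzyme that works late in the pathway. miR171 therefore stands upstream of chlorophyll in that plant, and magnesium is the atom at the centre of the chlorophyll molecule. Whether the sequence listed below for miR171 acts on these mRNAs in sweet orange was not tested. Levels of SCL mRNAs, of the reductase mRNA and of chlorophyll are not part of the count table and were not analysed here.

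The sequence that the study lists for miR171 is shown first because the base pairing described below rests on it. The sequence listed for miR479 follows, since of the 690 sequences listed for known miRNAs it was the one that came nearest to that of miR171 or to its reverse complement. Capitals mark the seed, bases 2 to 8 from the 5′ end, through which a small RNA first contacts its target.
miR171: cGAGCCGAaucaauaucacuc
miR479: uGUGAUAUugguucggcucauc
The miR171 seed was found in 1 of the 690 listed sequences, its own, both at bases 2 to 8 and anywhere along the sequence. miR171 and miR479 thus differed in their seeds. No listed sequence was found for miR170. In a comparison of stretches of 17 bases with at most 4 mismatches, 1 other known name came up beside miR479. This was miR5217, with 4 mismatches to the reverse complement of miR171, which had 56 counts in control leaves and 1 in Mg-deficient leaves and did not pass the abundance filter described below.

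The study also lists 113 miRNAs that it predicted outside miRBase, and 3 of them resembled miR171 on the same strand by the same rule. They are shown because reads of the miR171 type can stand under these names too, so the name miR171 need not hold all of them. Capitals mark the bases equal to those of miR171.
novel_mir_252: ttGAGCCGcgTCAATATCtCc
novel_mir_97: ttGAGCCGcgcCAATATCACg
novel_mir_9: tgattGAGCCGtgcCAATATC
All 3 hold the first 6 bases of the miR171 seed, which no other predicted sequence holds. In all 3 these bases lie further from the 5′ end than in miR171, so their own seeds differ from that of miR171. Their levels were not analysed here.

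Laid against each other in opposite directions, the listed sequences of miR171 and miR479 are close to complementary, as the strands of a miRNA duplex are. In the next pair of lines, capitals mark the bases that pair between them, with G and U counted as a pair.
miR171, pairing bases: cGAGCCGAAUCAAUAUCACuc
miR479, pairing bases: uGUGAUAUUGGUUCGGCUCauc
Bases 2 to 19 of miR171 paired with bases 2 to 19 of miR479 without a gap, in 17 Watson-Crick pairs and 1 G-U pair. Beyond the end of the other strand, 2 bases of miR479 and 1 base of miR171 were left at the 3′ ends. The reverse complement of miR171, gaGUGAUAUUGaUUCGGCUCg, shows the same relation, with capitals for the bases that it shares with miR479. Whether the counted reads of both names come from 1 precursor was not tested. The RefSeq gene table of the sweet orange assembly DVS_A1.0 holds 8 genes named MIR171 among its 129 miRNA genes, and 0 named MIR170 or MIR479. Reads of several loci can therefore stand under the single name miR171, and how the authors divided them is not given in the sources used here.

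Values are given below for control leaves, the Mg-sufficient library, and for Mg-deficient leaves, the other library. The libraries had 22218850 clean reads in the Mg-sufficient and 20328011 clean reads in the Mg-deficient sample. Under the labels of the deposited table, known miRNAs made up 22.9% of the clean reads in control leaves and 14.8% in Mg-deficient leaves, so a miRNA that kept its place among the miRNAs would still be lower per clean read. A normalized read-count is given below as reads per 1000000 clean reads (RPM) with a 95% Wilson interval. The intervals treat each read as an independent draw and cover counting error only. PCR copies of 1 molecule are counted as separate reads, so the intervals can be too narrow even for that.

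miR171 had 13357 counts in control leaves, a normalized read-count of 601 RPM (591 to 611). In the Mg-deficient library it had 4441 counts, or 218 RPM (212 to 225). miR171 was thus 2.75-fold lower in Mg-deficient leaves, and the intervals of the normalized read-counts lie far apart. Its log2 ratio, Mg-deficient to Mg-sufficient, was -1.46 (95% interval from the exact Clopper-Pearson interval of the split of the counts, -1.51 to -1.41). Ordered by count, miR171 was number 28 of the 1017 names with a count in control leaves and number 48 of 958 in Mg-deficient leaves. It had 0.262% (0.258 to 0.266%) of the known miRNA counts in the former and 0.148% (0.144 to 0.152%) in the latter. The name was therefore also lower as a share of the miRNAs alone, with a log2 ratio of -0.83 on that scale.

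miR170 had no count in control leaves, where 3 counts would be 0.135 RPM and the 95% Wilson interval reaches up to 0.173 RPM. In the Mg-deficient library it had 3 counts, or 0.148 RPM (0.0502 to 0.434). A difference between the libraries was not detectable at this depth, and no ratio is given because both values are at or below 3 counts. Of the 4444 counts of both family names in Mg-deficient leaves, miR170 had 0.0675% (95% Wilson interval, 0.0230 to 0.198%). The counts of the family were in effect those of miR171. The authors allowed up to 2 mismatches to a known miRNA, so reads of miR170 and miR171 cannot be told apart with certainty by name.

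miR479, whose listed sequence pairs with that of miR171, had 17953 counts (808 RPM, 796 to 820) in control leaves and 8314 counts (409 RPM, 400.3 to 418) in Mg-deficient leaves. Like miR171 it was lower in Mg-deficient leaves, by 1.98-fold, with a log2 ratio of -0.98 (-1.02 to -0.94). In both libraries miR479 was the more abundant of the pair, with 1.34 counts per count of miR171 in control leaves and 1.87 in Mg-deficient leaves.

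**Figure D1:**
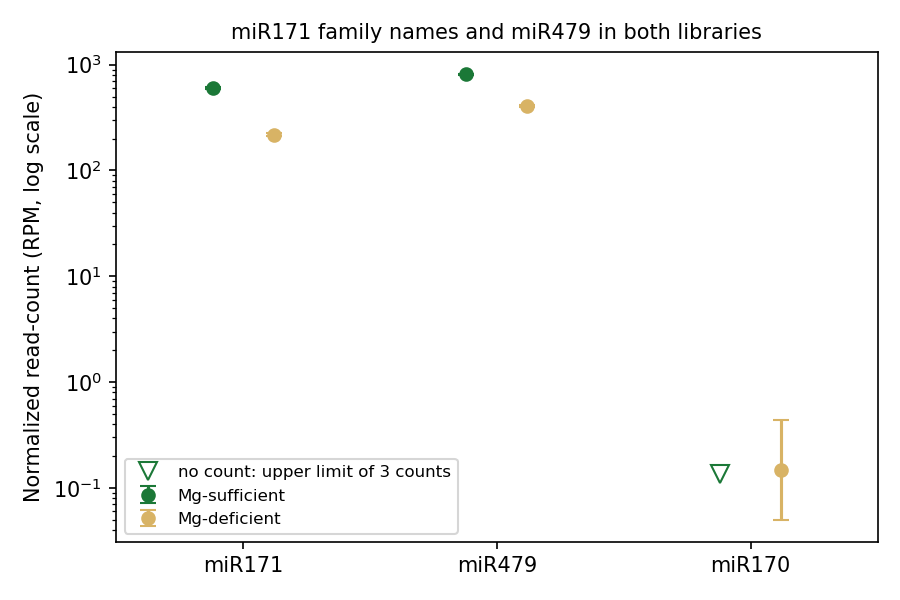
Normalized read-count (RPM, log axis) of miR171, miR479 and miR170 in the Mg-sufficient and the Mg-deficient library, 1 library each; points are values and bars are 95% Wilson intervals, which cover counting error only and are mostly smaller than the points. miR171 was 601 RPM and 218 RPM, miR479 was 808 RPM and 409 RPM, and miR170 had 3 counts in Mg-deficient leaves and none in the other, drawn as an open triangle at the limit of 3 counts.

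Compared with each other, miR171 was lower by more than miR479 in Mg-deficient leaves. Of the summed counts of both names, miR171 had 42.7% (95% Wilson interval, 42.1 to 43.2%) in control leaves, 13357 of 31310 counts. It had 34.8% (34.0 to 35.6%) in Mg-deficient leaves, 4441 of 12755 counts. The difference of the log2 ratios, miR171 minus miR479, was -0.48 (95% interval from the conditional odds ratio of the 4 counts, -0.54 to -0.42). This difference is larger than the counting error, and it does not depend on the library size because both names are divided by the same total. Summed over both names, the normalized read-count was 1409 RPM in control leaves and 627 RPM in Mg-deficient leaves, a log2 ratio of -1.17.

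The study considers a miRNA changed when it passes both a p-value from the reads and a ratio. Here a name was called when it had at least 10 RPM in at least 1 library, a one-sided Audic-Claverie tail below 0.01 and a log2 ratio beyond 1.5 in either direction, a rule that sets the reads of 2 libraries side by side and does not test the treatment. Of the 324 names that passed the abundance filter, 53.7% were called, 25.6% as lower and 28.1% as higher. Of the 2 family names 1 passed the filter, and 0 were called. miR171 missed the log2 ratio by 0.040, and its counting interval reaches past the threshold. Only miR894 had a log2 ratio between miR171 and the threshold, and on the called side the next were miR5059 (-1.54) and miR535 (-1.57), names picked for their place in this order. With a linear ratio of 1.5 as the threshold miR171 was called lower, as were 39.8% of the names that passed. With a log2 ratio of 1 it was called lower as well, as were 29.9% of the names.

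Among all names the place of miR171 depended on how abundance was required. Of the 324 names that passed the filter in either library, 84 had a lower log2 ratio than miR171, and the median was -0.30. Of those 84 names, 39 had at most 3 counts in Mg-deficient leaves, and 28 of them had none. Of the 149 names with at least 10 RPM in both libraries, 9 had a lower log2 ratio than miR171, which was number 10 from the lowest, and the median was -0.29. Of these 149 names, 11 were called higher and 8 lower.

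**Figure D2:**
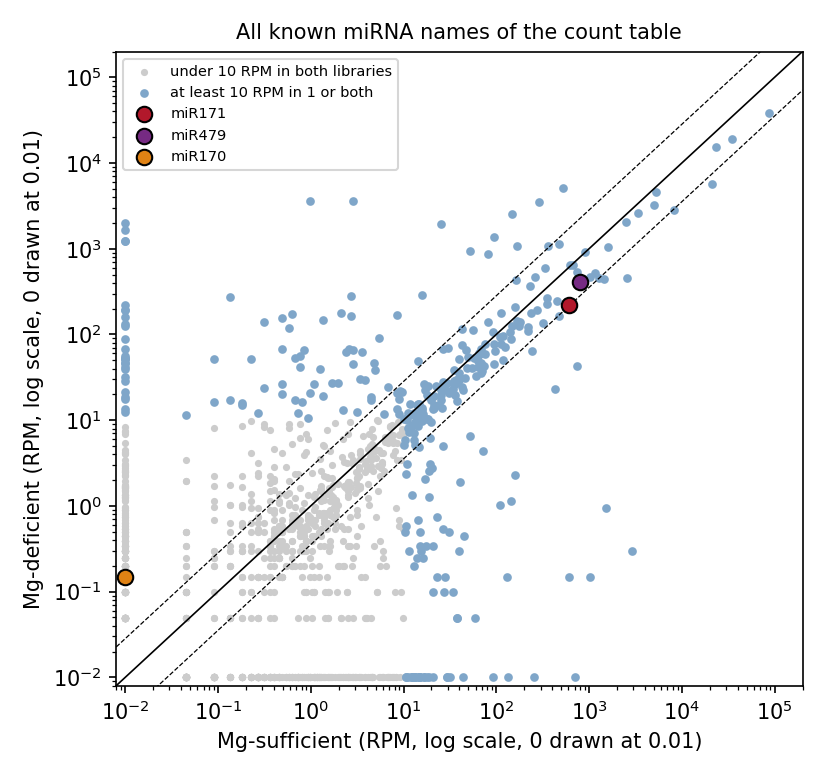
Normalized read-count (RPM, log axes, a count of 0 drawn at 0.01) of the 1215 names in the Mg-sufficient and the Mg-deficient library. The solid line marks equal values and the dashed lines a log2 ratio of 1.5 in each direction; miR171 lies on the inner edge of the lower dashed line, miR479 lies between the lines, and miR170 lies at the left edge with 3 counts in Mg-deficient leaves.

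The 3 names nearest to miR171 in level were found by the distance between log2 normalized read-counts over the 2 libraries, among the names that passed the abundance filter. miR5033 was the nearest, at a distance of 0.45, with 451 RPM in control leaves and 247 RPM in Mg-deficient leaves. miR5059 followed at 0.53, with 478 RPM and 164 RPM, and its log2 ratio of -1.54 (-1.60 to -1.49) overlaps in its interval with that of miR171. miR3948 was the third at 0.79, with 349 RPM and 229 RPM. Likeness over 2 libraries says only that these levels were similar.

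miR171 was then set beside 17 other names of conserved miRNAs that act on mRNAs of transcription factors, of hormone receptors and F-box proteins or on a precursor of regulatory small RNAs. The list was chosen with earlier results of these data known and is not complete. Names outside it include miR529, with 2.70 RPM in control leaves and 280 RPM in Mg-deficient leaves, a log2 ratio of 6.70, called higher. Another is miR535, with a log2 ratio of -1.57, called lower. The counts below hold for the listed names only. All 17 were in the table and 14 of them passed the abundance filter. Of the 14, 2 were called lower and 0 were called higher, beside 25.6% and 28.1% of all names that passed. All 14 had at least 10 RPM in both libraries, and of the 149 such names 8 were called lower and 11 higher. Under the other library sizes between 1 and 4 of the 14 were called lower, beside between 65 of 326 and 96 of 333 of all names that passed. The median log2 ratio of the 14 was -0.79. Below 0 were 13 of the 14, beside 191 of all 324 names that passed and 103 of the 149. With all known miRNA counts as the library size, 8 of the 14 were below 0, while the median of all names that passed rose to 0.45. Of the 14, only miR164 and miR156 had a lower log2 ratio than miR171. The counting interval of none of the 14 overlapped with that of miR171. Such intervals cover counting error only and are narrow for abundant names, and no share over all names is set beside this.

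miR164, which targets NAC transcription factors, was the lowest of the list. It had 2581 RPM in control leaves and 454 RPM in Mg-deficient leaves, so its log2 ratio stood 1.05 below that of miR171. miR156, which targets SPL transcription factors of the age pathway, stood 0.46 below. The SPL-targeting miR157, with 87123 RPM and 37913 RPM, came next above miR171, with a log2 ratio of -1.20. The listed sequences of miR156 and miR157 differ by 3 mismatches over 21 bases, and those of miR165 and miR166 by 1, so reads can be shared within these pairs.

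miR858, a regulator of MYB mRNAs, had 37.7 RPM in control leaves and 16.6 RPM in Mg-deficient leaves, a log2 ratio of -1.18 (-1.37 to -0.996). miR167, which targets auxin response factors, and miR169, which targets NF-YA subunits, had log2 ratios of -0.89 and -0.89. For miR390, which triggers small RNAs from TAS3 transcripts, it was -0.78, and for miR165 and miR166, which target class III homeodomain-leucine zipper genes, it was -0.79 and -0.63. These names were lower by less than miR171.

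miR393, which targets auxin receptor genes, had a log2 ratio of -0.63, miR396, which targets growth-regulating factors, -0.49, and miR159, which targets MYB factors of the GAMYB type, -0.41. miR172, which targets AP2-like factors, had the value nearest to 0 among those below it, -0.37. The only name of the list above 0 was miR160, another regulator of auxin response factors, with 265 RPM in control leaves and 466 RPM in Mg-deficient leaves, a log2 ratio of 0.82 (0.77 to 0.86). The difference between miR171 and miR160 was -2.28 on the log2 scale, the widest between miR171 and a name of the list that passed the filter. The remaining 3 names did not pass: miR319, a regulator of TCP factors, had 9 and 31 counts in control and Mg-deficient leaves, miR394, which targets an F-box gene, had 19 and 11, and miR828, another MYB regulator, had 6 and 3.

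**Figure D3:**
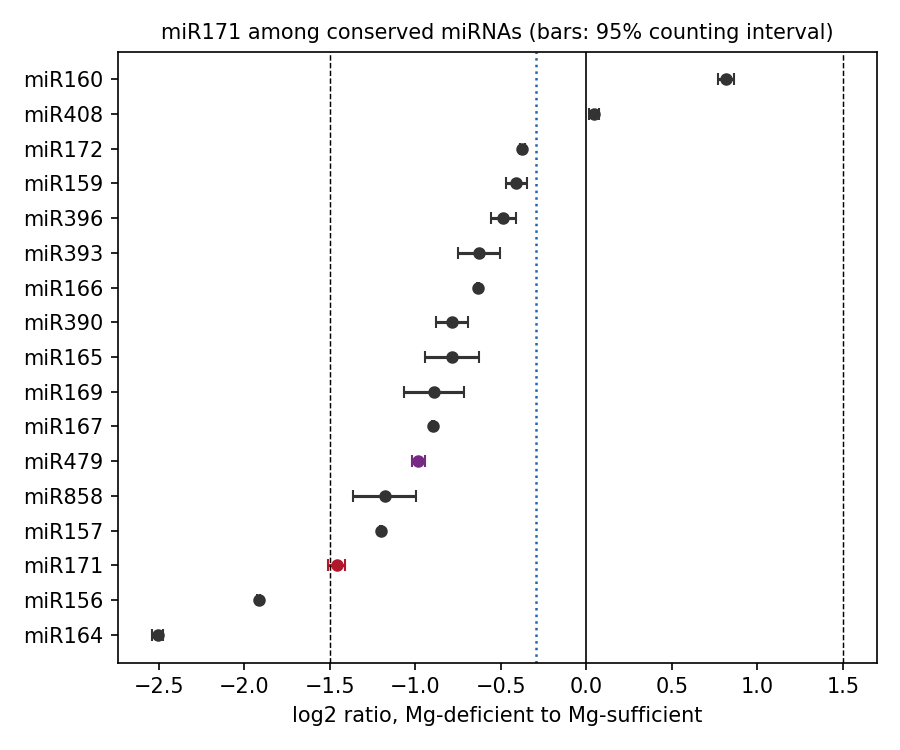
log2 ratio, Mg-deficient to Mg-sufficient, of miR171 (red), miR479 (purple) and the conserved names and miR408 that passed the abundance filter (black), with 95% counting intervals; dashed lines mark 1.5 in each direction, and the dotted line marks the median of all 324 names, -0.30. miR171 at -1.46 comes after miR164 and miR156, the lowest, and miR160 at 0.82 is the highest.

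The names of a second list, tied to leaf greening or senescence in Arabidopsis, were also read, as miR171 is tied to chlorophyll there. They are miR164, whose NAC target ORE1 promotes leaf senescence, miR319, whose TCP targets do so through jasmonate, miR408, a light-induced miRNA that acts on copper protein mRNAs, and miR840. Of these 4 names 2 passed the abundance filter, each with at least 10 RPM in both libraries. Of the 2, 1 was called lower, miR164, which the first list also holds. This stands beside 25.6% of all names that passed and 8 of the 149 names with at least 10 RPM in both libraries. miR408 had 894 RPM in control leaves and 921 RPM in Mg-deficient leaves, a log2 ratio of 0.04 (0.01 to 0.07), so miR171 and miR408 differed by -1.503 on the log2 scale. With the totals exchanged the log2 ratio of miR408 alone was -0.21, and without the 5 most abundant names in the library size it was -0.28, so its direction rests on the scaling, while its difference from miR171 does not. No count of miR840 was found in control leaves and 27 were found in Mg-deficient leaves. It was at least 9.84-fold higher against 3 counts, under 10 RPM in both libraries.

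The size of the miR171 difference depended on the library size used, while its direction was the same under each library size tried. The direction rests on the labels of the deposited table. In the study's own summary of the sequencing the library totals, and the miRNA reads with them, stand under the opposite treatments. The study's lists of predicted miRNAs, by contrast, scale control counts by the total used here for control leaves. The paper also states that qRT-PCR of selected miRNAs, miR171 not among them, matched its sequencing for most of them. If the labels were exchanged, miR171 would be 2.75-fold higher in Mg-deficient leaves. The log2 ratio was -0.83 when all known miRNA counts served as the library size, -1.12 under TMM from edgeR and -1.09 under the size factors of DESeq2. In these scalings the log2 ratios of all names moved up together, by 0.63, 0.34 and 0.37. With the clean-read totals exchanged between the libraries miR171 stood at -1.72, and with the known miRNAs other than the 5 most abundant as the library size it stood at -1.78, both past the threshold. miR171 was thus called under 2 of the 5 other library sizes, as were 92 of 332 and 96 of 333 names that passed, called lower there. Set against the median of the names that passed, the log2 ratio of miR171 stood at -1.17 with the clean-read totals and between -1.28 and -1.10 with the others. Directions within the conserved list did change with the scaling, in that all known miRNA counts as the library size put 6 of its 14 names above 0, namely miR159, miR160, miR166, miR172, miR393 and miR396. The median of all names that passed was 0.45 in that scaling, so this shift was shared by all names.

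**Figure D4:**
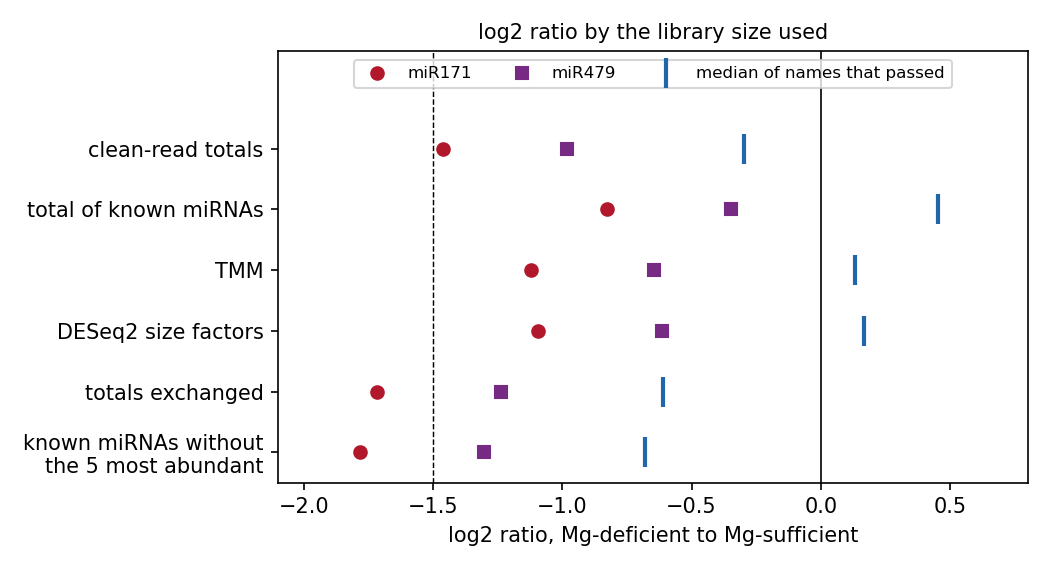
log2 ratio, Mg-deficient to Mg-sufficient, of miR171 (circles), miR479 (squares) and the median of the names that passed the abundance filter (bars), for the clean-read totals and 5 other library sizes; the dashed line marks -1.5. miR171 lay between -1.78 and -0.83, and its distance to miR479 was -0.48 in each because the library size cancels.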

How the data were processed

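Small RNA of 2 leaf libraries, 1 per treatment, was analysed, and the samples were grouped by their labels. Per the paper, reads were cleaned with software of the sequencing centre and placed on the sweet orange genome (JGI version 1.1) with SOAP. Structural RNAs were taken out, and what remained was matched to miRBase 21, allowing 2 mismatches. The deposited counts are whole reads per miRNA name. The authors also deposited RPM values, their counts per 1000000 clean reads (TPM in the paper), which those computed here equalled within 0.0001 for all 1215 names. The deposited comparison table gives the clean-read totals used here. It also holds log2 ratios, p-values of the Audic-Claverie formula and normalized values with 0 written as 0.01, a score column by the authors, and these were not used. In the study's own summary of the sequencing, these totals and the miRNA reads stand under the opposite treatments. The study's lists of predicted miRNAs scale control counts by the total used here for control leaves. The labels of the deposited table were kept. As alternatives the totals alone, and the labels of the libraries, were exchanged. The handling of a read that fits more than 1 name is not given in the sources used here.

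From the counts, RPM with Wilson intervals, log2 ratios (a count of 0 set to 0.01 RPM) with exact Clopper-Pearson intervals and the study's call rule were computed. At most 3 counts in a library gave a bound. No replicate exists, so no treatment effect was tested. The depth of 22218850 (Mg-sufficient) and 20328011 (Mg-deficient) clean reads puts 3 counts at 0.135 and 0.148 RPM. The names described are mainly the family members, miR479, the 3 names nearest in level and 2 lists. The first list holds conserved miRNAs and the second holds miRNAs tied to leaf greening or senescence in Arabidopsis. The members and lists were chosen with earlier results of these data known. The sequences are those that the study lists. Python 3.11.15 with scipy 1.17.1, R 4.3.3, edgeR 4.0.16 and DESeq2 1.42.0 were used. DESeq2 and edgeR served for library sizes only, with their geometric mean set to that of the clean-read totals.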

Additional observations from a re-analysis of the deposited data

How the results depend on the processing

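The log2 ratio of miR171 was -1.46 and stayed below 0 under every alternative but 1. With the labels of the libraries exchanged, an alternative chosen after the data were seen, it was 1.46. It was -0.83 when all known miRNA counts served as the library size, -1.12 with TMM, -1.09 with DESeq2's size factors, -1.72 with the totals exchanged, -1.78 with the total of known miRNAs without the 5 most abundant names, and -1.17 when the counts of miR171 and miR479 were summed. In the same order of library sizes, the normalized read-count of miR171 was 482, 535, 529, 657 and 672 RPM in the Mg-sufficient library and 272, 246, 248, 199.9 and 195 RPM in the Mg-deficient library. These moves follow from the library size, which divides every count. Adding 1 count to both libraries left the log2 ratio at -1.46. The difference between miR171 and miR479, -0.48, was the same under all 5 other library sizes because the library size cancels in it. The value of miR170 stayed within its counting interval.

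The number of names called was 91 higher and 83 lower. Without the abundance filter it was 226 and 308, with at least 10 RPM in both libraries 11 and 8, and with a minimum of 50 RPM in either library 49 and 23. With a linear ratio of 1.5, 110 were called higher and 129 lower. With all known miRNA counts as the library size, 114 were called higher and 65 lower. The call of miR171 as lower was made with the linear ratio of 1.5, the log2 ratio of 1, the exchanged totals and the total without the 5 most abundant names, and not under the other settings. In that order, 129 of 324, 97 of 324, 92 of 332 and 96 of 333 names that passed were called lower. No paired analysis was possible because each treatment has 1 library. For the same reason no library could be left out. Depth did not limit the value of miR171, while miR170 was too rare for any comparison.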
